A study of Mus musculus with 2 samples.

Results

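The region described here is a window of 500 kb on mouse chromosome 1, chr1:74550000-75050000 in the mm8 build, labelled as the region of the signalling genes Wnt6, Wnt10a and Ihh and the transcription factor gene Fev. Its members are the 12 peaks, out of 3445 that the authors deposited for a chromatin immunoprecipitation with sequencing (ChIP-seq) against PHF19, that overlap this window. Both libraries came from E14 cells, a mouse embryonic stem cell line grown on gelatin with the cytokine LIF. One group was DNA recovered with a custom rabbit polyclonal antibody against PHF19 and the other was input DNA, made with no antibody. Each group had 1 library, so no value below has a replicate error, and each fold compares these 2 libraries, not conditions. How specific the antibody is was not analysed here, so the reads show what it recovered.

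PHF19 belongs to the Polycomb-like proteins, partners of the Polycomb repressive complex PRC2, which places a repressive methyl mark on histone H3. Polycomb complexes are known to occupy developmental genes with CpG-rich promoters in embryonic stem cells, and Polycomb-like proteins can bind CpG-containing DNA. Wnt6 and Wnt10a encode secreted Wnt ligands, which act through Frizzled receptors. Ihh encodes Indian hedgehog, a secreted Hedgehog ligand known for its role in cartilage and bone growth. Fev, also called Pet-1, encodes an ETS transcription factor of serotonergic neurons.

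All 4 genes were found on chromosome 1 in the RefSeq gene table of the GRCm38.p6 assembly. In that table the 7 protein-coding genes from the first to the last of them followed each other as Wnt6, Wnt10a, Cdk5r2, Fev, Cryba2, Cfap65 and Ihh. Cdk5r2 encodes a neuronal activator of the kinase CDK5, Cryba2 a lens crystallin and Cfap65 a protein of cilia and flagella. The microRNA gene Mir375 lay between Cryba2 and Cfap65, and 5 further genes of non-coding RNA lay among the others. The protein-coding neighbours outside were Prkag3 before Wnt6 and Nhej1 after Ihh. An mm8 gene annotation was not used here. Whether a given peak lies at, in or between these genes was therefore not determined, and the name of the window was taken from its label.

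The promoters of Wnt6, Fev and Ihh are shown because the CpG content of such sequences is the property for which Polycomb target promoters are known. They are RefSeq sequences of GRCm38.p6, from 250 bases before to 50 bases after the annotated start, read 5′ to 3′ on the strand of the gene, with each CG in capitals. The Wnt6 promoter is chr1:74771642-74771941 (plus strand), that of Fev is chr1:74885359-74885658 (minus strand) and that of Ihh is chr1:74951623-74951922 (minus strand). These positions cannot be compared with the mm8 positions of the peaks.
Wnt6: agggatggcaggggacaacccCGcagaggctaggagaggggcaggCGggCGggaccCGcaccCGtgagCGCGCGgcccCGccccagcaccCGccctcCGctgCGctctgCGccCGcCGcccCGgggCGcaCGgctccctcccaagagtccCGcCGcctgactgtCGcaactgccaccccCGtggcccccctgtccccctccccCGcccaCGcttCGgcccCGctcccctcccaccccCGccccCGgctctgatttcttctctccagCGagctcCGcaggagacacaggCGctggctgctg
Fev: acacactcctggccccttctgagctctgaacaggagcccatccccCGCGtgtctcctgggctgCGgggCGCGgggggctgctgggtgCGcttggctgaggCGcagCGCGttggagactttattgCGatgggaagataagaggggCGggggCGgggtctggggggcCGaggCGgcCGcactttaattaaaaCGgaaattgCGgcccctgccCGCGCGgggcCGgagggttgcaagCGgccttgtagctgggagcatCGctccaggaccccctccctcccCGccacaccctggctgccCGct
Ihh: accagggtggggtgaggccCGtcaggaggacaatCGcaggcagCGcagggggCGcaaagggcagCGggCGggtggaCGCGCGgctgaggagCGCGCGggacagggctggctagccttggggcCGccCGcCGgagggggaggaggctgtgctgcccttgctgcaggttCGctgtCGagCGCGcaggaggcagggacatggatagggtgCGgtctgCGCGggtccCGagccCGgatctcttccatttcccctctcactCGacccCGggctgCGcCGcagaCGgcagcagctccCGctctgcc
The Wnt6 promoter held 31 copies of the dinucleotide CG, a motif that reads the same on both strands, the Ihh promoter 30 and the Fev promoter 25. The median over the 32851 promoters of the table was 7, and 94.6% of them held at least 1. At least as many CGs as in Wnt6 were found in 10.6% of all promoters, as many as in Ihh in 11.7% and as many as in Fev in 18.4%. All 3 promoters therefore lay in the CpG-rich part of the table. Cdk5r2, between Wnt10a and Fev, had 33 CGs, and Cryba2 had 15. The listed promoters of non-coding RNA genes in this stretch held fewer, from 1 in Gm32275 to 8 in Gm32099. No promoter of Wnt10a was listed. No ChIP value was assigned to any of these promoters.

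The ChIP library held 21957101 distinct reads and the input 24496988, with 1 read kept per position and strand. Fold below is the ChIP share of distinct reads divided by the input share, with an exact 95% interval (Clopper-Pearson, conditional on the sum of both counts). These intervals cover counting error only, and reads amplified by PCR are not independent molecules, so the true counting error may be larger. The 12 peaks were called by the authors on these same ChIP reads, and the window was chosen for them. Their folds are therefore descriptions, with no test.

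Together the 12 peaks held 1207 ChIP reads and 361 input reads over 26.3 kb, a joint fold of 3.73 (3.31 to 4.21). The rest of the window held 5239 ChIP reads against 5335 in the input, for a fold of 1.10 (1.05 to 1.14). The fold was thus higher in the peaks, while the interval outside them also lay above 1. All 12 peaks had a fold of at least 2, as did 98.6% of the deposited list, so this count says nothing particular about the window. A fold of at least 4 was found in 2 of the 12, against 40.6% of the list. The median fold of the 12 peaks was 3.38, against 3.68 over all 3445, and their folds ran from 2.50 to 6.25.

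**Figure D1:**
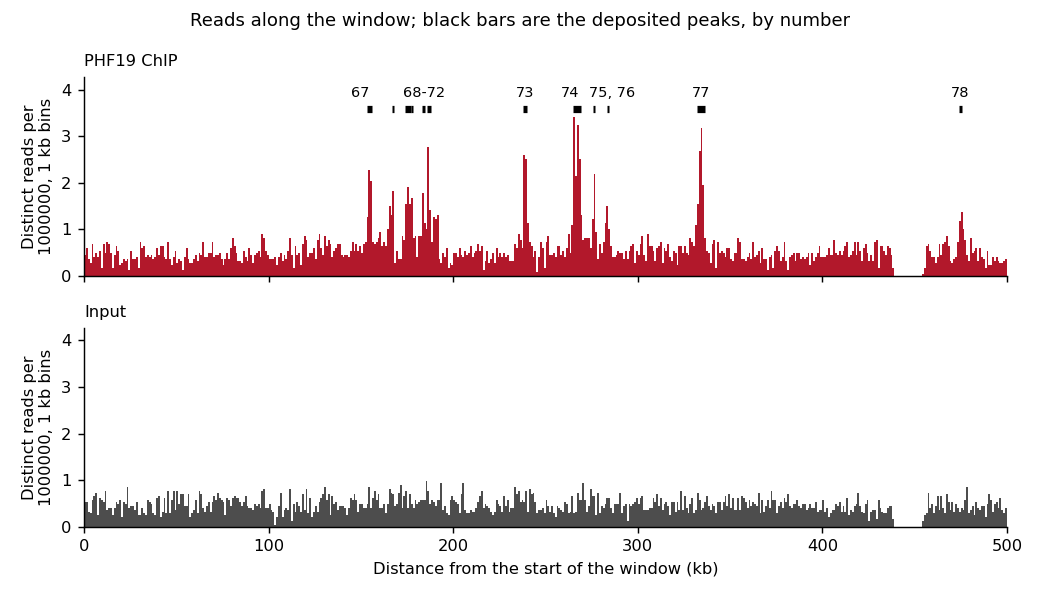
Distinct reads per 1000000 in bins of 1 kb along the window, for the PHF19 ChIP library (top) and the input (bottom) on the same vertical scale; the horizontal axis is the distance from the start of the window in kb, and black bars mark the 12 deposited peaks by number. ChIP reads rise at the marked peaks, highest at 74 and 77, and both libraries are empty over 15 kb between peaks 77 and 78. The input rises far less. Bins touching a peak had a median of 34 ChIP and 14 input reads, against 11 in each library over all bins.

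The peaks are named below by the authors' numbers, which run from 67 to 78 along the chromosome. The authors' scores, used only to rank peaks within their list, ran from 68.6 to 1043 in the window. Of the 12 peaks, 7 lay above the median score of the list, 113.6.

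The strongest peak of the window was peak 74, chr1:74814891-74819472, 4582 bp wide, with 269 ChIP and 48 input reads. Its fold was 6.25 (4.59 to 8.69), which ranked 264 among the 3445. It ranked 39 by score, 87 by ChIP reads and 117 by width. The input density there was 1.16 times the median of chromosome 1, the median over 1 kb bins with a read. Signal was uneven inside the peak. The stretch from 2 to 1 kb before its centre held 78 ChIP reads against 9 in the input, for a fold of 9.67 (4.84 to 21.9). The next kb held 50 ChIP reads against 11 in the input, for a fold of 5.07 (2.61 to 10.8). The kb after the centre rose again in ChIP reads, to 81, but its 18 input reads gave a fold of 5.02 (2.99 to 8.89). The last, from 1 to 2 kb after the centre, held 46 against 10, a fold of 5.13 (2.55 to 11.4). Thus ChIP reads formed a pair of maxima on either side of the centre, while the intervals of the folds overlapped.

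The second strongest was peak 77, chr1:74881869-74886356, 4488 bp wide and 47.6 kb beyond peak 76. It held 221 ChIP reads against 59 in the input, for a fold of 4.18 (3.12 to 5.67). In the deposited list it ranked 137 by score and 127 by width, but only 1248 by fold. In contrast to peak 74, its ChIP reads were most numerous in both kb next to the centre. The kb before the centre held 67 ChIP and 14 input reads and the kb after it 71 and 12, at folds of 5.34 (2.97 to 10.3) and 6.60 (3.55 to 13.4). From 2 to 1 kb before the centre the counts were 38 and 17, a fold of 2.49 (1.37 to 4.71), and from 1 to 2 kb after it they were 31 and 6, a fold of 5.76 (2.37 to 16.9). The ChIP reads thus fell off on both sides, while the intervals of all 4 folds overlapped. Peaks 74 and 77 together made up 9.07 kb of the 26.3 kb and held 490 of the 1207 ChIP reads. Their joint fold was 5.11 (4.14 to 6.36), and that of the other 10 peaks was 3.15 (2.73 to 3.65). The 2 peaks were picked by their score, which comes from these same reads. A higher fold is favoured by that choice, so the difference is a description. Taking the ChIP reads beyond the number expected from the input, peak 74 held 25.6% and peak 77 held 19.0% of the excess of all 12.

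**Figure D2:**
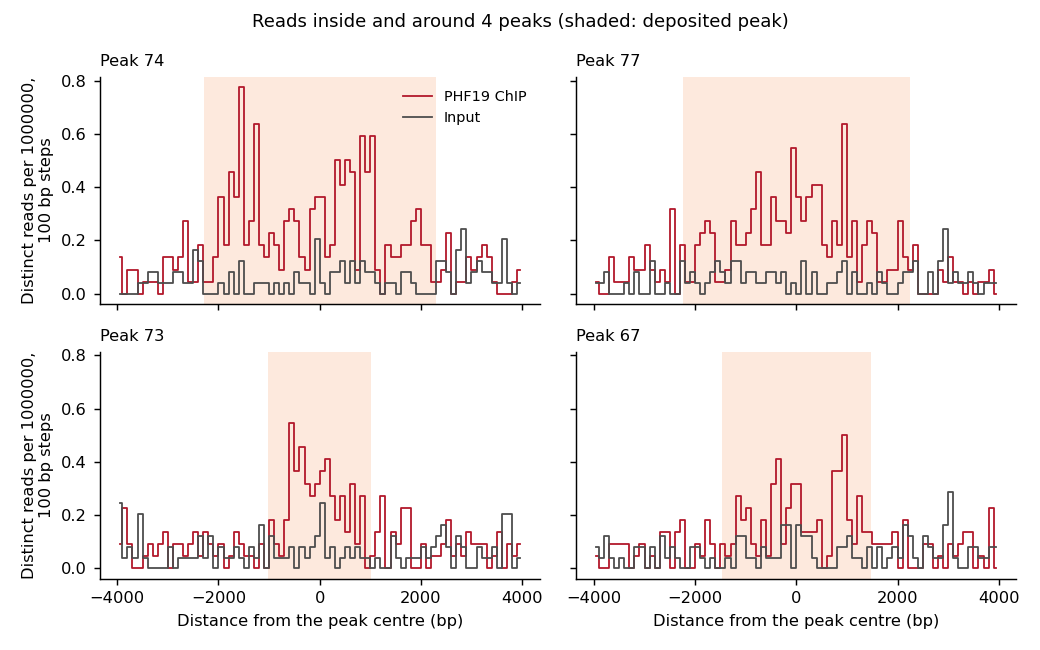
Distinct reads per 1000000 in steps of 100 bp within 4000 bp of the centre of peaks 74, 77, 73 and 67, with the PHF19 ChIP in red, the input in grey and the deposited peak shaded. In peak 74 the ChIP line is high on both sides of the centre, in peak 77 most reads lie within 1 kb of the centre, and peaks 73 and 67 are narrower.

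Peak 73, chr1:74788059-74790087, stood alone, with 50.4 kb to the peak before it and 24.8 kb to the one after. It held 112 ChIP reads against 33 in the input over 2029 bp, for a fold of 3.79 (2.55 to 5.77). Its ChIP density of 55.2 reads per kb was second in the window to the 58.7 of peak 74, ahead of 49.2 in peak 77. By fold, however, it did not stand out. Its input density of 16.3 reads per kb was 1.81 times the median of the chromosome. The part of the input in its fold was not tested.

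Peak 67, chr1:74703078-74706023, was the first of the window and 2946 bp wide. It held 123 ChIP reads against 43 in the input, for a fold of 3.19 (2.24 to 4.63). A gap of 10.7 kb separated it from peak 68, just over the 10 kb that defined a group here. The parts right and left of its centre were alike, at folds of 3.45 (2.08 to 5.95) and 2.94 (1.77 to 5.05).

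Peaks 68 to 72 formed a group of 5 over 20.9 kb, chr1:74716747-74737680, in which the peaks covered 40.7% of the length. Peak 69, chr1:74723986-74726886, was the widest at 2901 bp, with 107 ChIP reads against 46 in the input and a fold of 2.60 (1.82 to 3.75). It lay only 172 bp before peak 70, chr1:74727059-74728381, which held 47 ChIP reads against 15 in the input over 1323 bp, for a fold of 3.50 (1.92 to 6.73). Peak 68, chr1:74716747-74718044, also held 47 ChIP reads, but against 21 in the input, and its fold of 2.50 (1.46 to 4.40) was the lowest of the window. Peak 71, chr1:74733250-74734420, held 51 ChIP reads against 15 in the input, for a fold of 3.79 (2.10 to 7.26), and peak 72, chr1:74735858-74737680, held 83 and 30, a fold of 3.09 (2.01 to 4.86). The intervals of all 5 overlapped, so their order by fold was not resolved at this depth.

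Peaks 74, 75 and 76 formed a group of 3 over 19.4 kb, chr1:74814891-74834310. Beside the strong peak 74, its other members were narrow and low. Peak 75, chr1:74825554-74826947, held 63 ChIP reads against 24 in the input, for a fold of 2.93 (1.80 to 4.90). Peak 76, chr1:74833272-74834310, was the narrowest of the window at 1039 bp and held 41 and 14 reads, a fold of 3.27 (1.74 to 6.49). Gaps of 6.08 and 6.32 kb separated the 3 peaks.

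Peak 78, chr1:75024265-75025564, lay apart from the others, 138 kb beyond peak 77. It held 43 ChIP reads against 13 in the input over 1300 bp, for a fold of 3.69 (1.95 to 7.48), with an input density of 1.11 times the chromosome median. The 138 kb before it had a fold of 1.08 (0.996 to 1.16). Both libraries had no read in 15 consecutive bins there, from 74989001 to 75004000. Whether these bases could be aligned at all is not known from the files.

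Ordered by fold, the peaks ran 74, 77, 71, 73, 78, 70, 76, 67, 72, 75, 69 and 68. No neighbours in this order were separated by their intervals. The interval of peak 74, from 4.59 upwards, lay clear of those of peaks 68 and 69, whose upper bounds were 4.40 and 3.75, and overlapped the other 9.

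**Figure D3:**
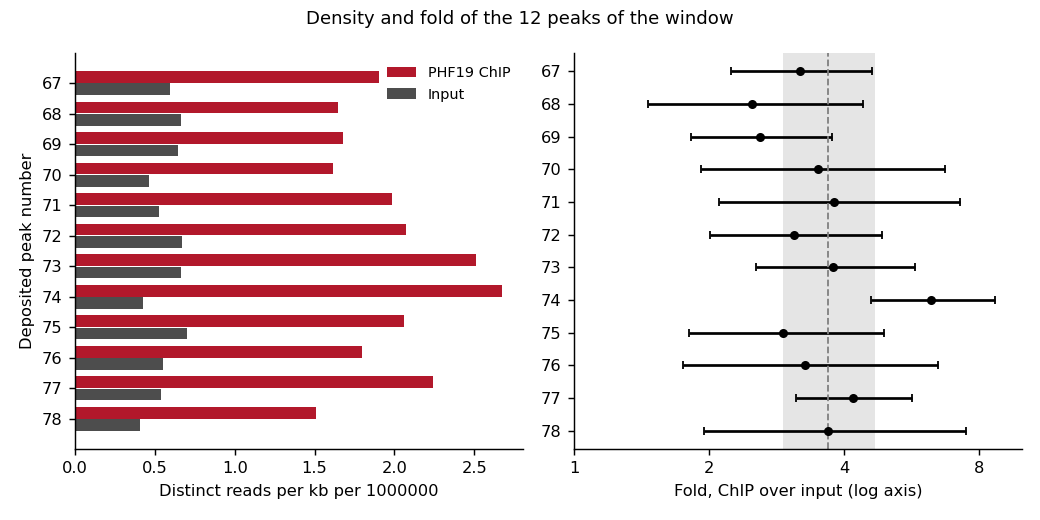
Left, distinct reads per kb per 1000000 in each of the 12 peaks for the PHF19 ChIP (red) and the input (grey); right, the fold of each peak on a log axis with its exact 95% counting interval, where the dashed line and band give the median (3.68) and quartiles (2.93 and 4.70) of all 3445 peaks. Only peak 74 has a fold above the band.

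ChIP reads were balanced between strands in most peaks, with 37.4% (peak 69) to 56.6% (peak 72) on the plus strand. In peak 69 the exact binomial interval, 28.2 to 47.3%, lay below 50%, and the intervals of the other 11 included it. The input had 47.8% plus-strand reads in peak 69, with an interval of 32.9 to 63.1%.

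The window was among the densest in peaks, but it was chosen for its peaks, so this place is a description. When the genome was cut into 5279 tiles of 500 kb in register with the window, 13 tiles, the window included, held at least 12 peaks, and 10 had at least as many bases in peaks. Most tiles were empty, and the 1779 tiles with a peak had a median of 1. The deposited peaks nearest to the window were peak 66, chr1:74057083-74058570, and peak 79, chr1:75243085-75244246. Peak 66 lay 491 kb before the window and had a fold of 3.35 (1.93 to 6.06; 54 against 18 reads). Peak 79 lay 193 kb after it and had a fold of 4.29 (2.30 to 8.61; 50 against 13 reads). Their folds were within the range of those inside. From the outermost peaks of the window, the distance to these was 645 kb on the left and 218 kb on the right.

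With gaps of at most 10 kb the 12 peaks fell into 6 groups, 4 of them a single peak. The 5-peak group had a joint fold of 2.94 (2.39 to 3.64; 335 against 127 reads). Of the 55 groups in the genome with at least 5 peaks, 53 had a fold at or above it, itself included, and the median was 4.61. This group was thus near the low end in fold among groups of its kind. Its input density was 14.9 reads per kb of peak, 1.66 times the chromosome median, and only 2 other groups of the 55 had a ratio as high; their median was 1.16. Its ChIP density was also low, at 39.3 reads per kb against a median of 45.2, and 54 of the 55 groups were at or above it. The part of the input in its low fold was not tested.

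The 3-peak group had a joint fold of 4.84 (3.82 to 6.19; 373 against 86 reads). Of the 84 groups of 3 peaks in the genome, 24 had a fold at or above it, and the median was 4.29. Most of its reads came from peak 74. The intervals of the 5-peak and the 3-peak group did not overlap.

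The folds between the peaks of a group were lower than in the peaks. Between the peaks of the 5-peak group the fold was 1.09 (0.879 to 1.34; 180 against 185 reads). Between those of the 3-peak group it was 1.36 (1.10 to 1.68; 205 against 168 reads), an interval above 1, while that of the 5-peak group included 1. Those intervals overlapped, so a difference in this fold between the groups was not resolved. For both groups together the fold between peaks was 1.22 (1.05 to 1.41). The 4 groups with the most peaks in the genome, on chromosomes 11, 15, 6 and 2, had 16 to 25 peaks and folds of 1.90 to 2.41 between them. The intervals of those 4 groups began at 1.67 to 2.03. For the 5-peak group of the window, the upper bound of 1.34 lay below all 4, while that of the 3-peak group, 1.68, reached the lowest of them. In their peaks the 4 groups had joint folds of 3.89 (3.61 to 4.21) to 4.98 (4.45 to 5.58). These groups were picked by their number of peaks, and the differences from them were not tested. Peaks covered 47.5 to 64.1% of their length, against 40.7% in the 5-peak and 36.1% in the 3-peak group. The distance of the bases between peaks from the nearest peak was not adjusted for.

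**Figure D4:**
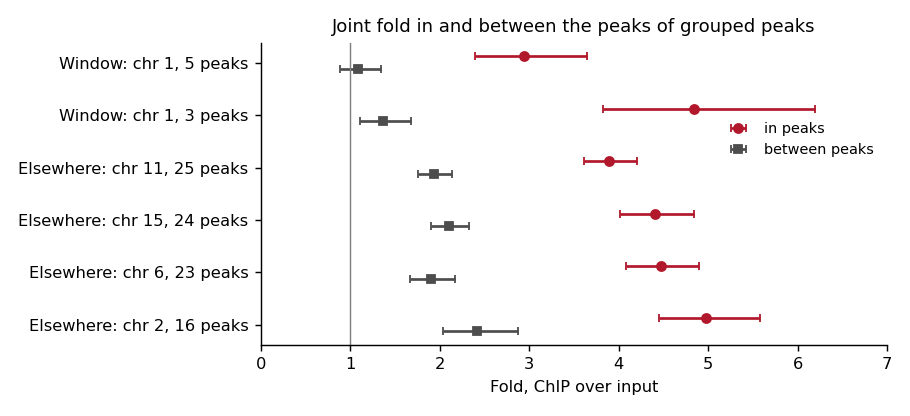
Joint fold of ChIP over input in the peaks (circles) and between the peaks (squares) of the 5-peak and 3-peak groups of the window and of the 4 groups with the most peaks in the genome, with exact 95% counting intervals. The fold between peaks lies at 1.09 and 1.36 in the window and at 1.90 to 2.41 in the other 4 groups.

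Outside the peaks the fold fell with distance. Within 2 kb of a peak it was 1.46 (1.31 to 1.64; 726 against 554 reads), at 2 to 5 kb it was 1.20 (1.07 to 1.36) and at 5 to 10 kb 1.14 (1.01 to 1.28). From 10 to 50 kb it was 1.04 (0.976 to 1.11). Over the autosomes the corresponding folds were 1.46, 1.12, 1.06 and 1.03, each within the interval of the window. A difference of the window from the rest of the genome in this decline was therefore not detectable at this depth. Outside peaks, the 500 kb before the window had a fold of 1.03 (0.994 to 1.07) and the 500 kb after it 1.09 (1.05 to 1.13). The value after it was close to that of the window outside its own peaks, 1.10 (1.05 to 1.14). These flanks held 1 and 6 deposited peaks.

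**Figure D5:**
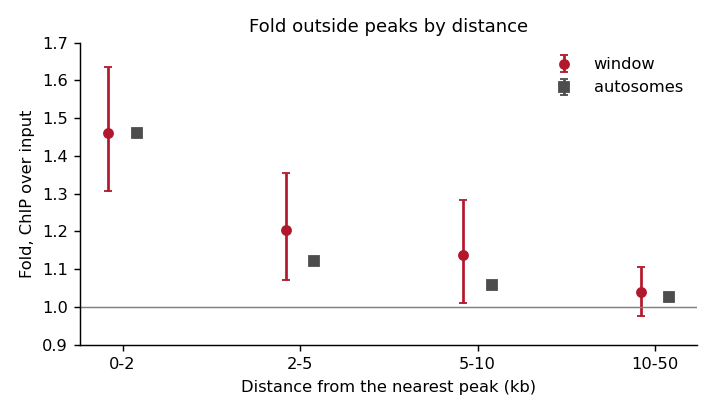
Fold of ChIP over input outside peaks by distance from the nearest peak (0 to 2, 2 to 5, 5 to 10 and 10 to 50 kb), in the window (circles) and over the autosomes (squares), with exact 95% counting intervals. The fold declines from 1.46 next to peaks to 1.04 in the window and 1.03 over the autosomes.

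Bins of 1 kb gave a view that did not use the edges of the peaks. They hold the same reads on which the peaks were called, and the window was chosen for its peaks. Raised bins at peaks are therefore favoured by that choice, and the counts are a description. A bin was counted as raised where both libraries together held at least 5 reads and the lower bound of its fold was above 2. Of the 484 bins with enough reads in the window, 11 (2.27%) were raised, against 0.137% of all bins in the genome. All 11 touched a peak. Peak 74 had 4 of them, peak 77 had 3, and peaks 67, 69, 72 and 73 had 1 each. The bin with the largest fold among them started at 74815001, inside peak 74, with 75 ChIP reads against 7 in the input and a fold of 11.95 (5.52 to 30.7). In peak 77 the bin from 74884001 held 70 ChIP reads against 9 in the input, for a fold of 8.68 (4.32 to 19.8). The other 6 peaks had no raised bin.

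A lower bound above 1 was reached by 45 of the 484 bins with enough reads, against 2.04% of all bins in the genome. Of these 45, 28 were among the 39 bins that touched a peak. Among the 17 outside peaks, 6 lay within 2 kb of one. The bin outside peaks with the most ChIP reads started at 74715001, 0.746 kb from peak 68, with 33 ChIP reads against 20 in the input and a fold of 1.84 (1.03 to 3.39). Both libraries were thus high in that bin. The longest run of such bins outside peaks was 3 neighbouring bins from 74739001 to 74742000, starting 1.32 kb after peak 72. They held 84 ChIP reads against 38 in the input, for a fold of 2.47 (1.66 to 3.72), close to the folds of the lowest deposited peaks of the window. This run was singled out after its values were seen. Over all 500 bins of the window the median was 11 reads in each library, above the chromosome medians of 8 ChIP and 9 input reads.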

How the data were processed

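PHF19 ChIP and input DNA of E14 cells were sequenced, 1 library each, and grouped by antibody as labelled. Aligned reads were deposited by the authors as positions with strand (42 bases per read; Bowtie and mm8, per the submitters' processing notes, version not given in the sources used here). They also deposited a list of MACS peaks (per the file headers), each with a score. For the caller, neither settings nor use of the input are stated.

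Read counts were made here from the deposited positions. Reads were kept once per position and strand, leaving out 8.38% in the ChIP and 7.33% in the input. The 5′ ends were moved inwards by 54 bp, from the input's strand lag of 109 bp; the ChIP lag equalled the read length of 42. An input count of 0 would be replaced by 3 reads, which occurred in 2 peaks of the list and in 0 of the window. Groups join peaks with gaps of at most 10 kb. All members were described, since the planned limit of 10 in full was passed by only 2. The fold and bin rules were tested on simulated counts. The members and lists were chosen with earlier results of these data known. RefSeq tables of GRCm38.p6 gave gene order and 3 of the 4 promoters. Tools were matplotlib 3.10.9, scipy 1.17.1, pandas 2.3.3 and numpy 2.4.6 in Python 3.11.15.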

Additional observations from a re-analysis of the deposited data

How the results depend on the processing

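Duplicates kept, unmoved 5′ ends and scaling by autosomal reads outside peaks left the fold of each of the 12 peaks, of both groups and of the other regions within its counting interval. The joint fold of 3.73 became 3.14 with peaks widened by 500 bp. Rescaled to the window outside its peaks, an alternative chosen after seeing the data, it was 3.40. Peaks with a fold of at least 4 numbered 2, or 3 with duplicates kept or ends unmoved, and 12 had a fold of at least 2. Raised bins of 1 kb numbered 11, and 45 with a lower bound above 1. Groups numbered 9 with gaps of at most 5 kb and 5 with gaps of at most 20 kb. At 5 kb peaks 74, 75 and 76 each stood alone, and peak 68 left the 5-peak group. At 20 kb peak 67 joined that group. The values given for both groups therefore hold for the 10 kb limit. Among the 53 groups with input under 2 times the chromosome median, chosen after seeing the data, the 5-peak group had the lowest fold. All 53, itself included, were at or above it. That limit left the 5-peak group with the highest input ratio of the groups kept. Input is the divisor of the fold, so a low place is favoured by this choice. It is therefore no check on the part of the input. No paired analysis was possible because each group had 1 library. With 13 to 59 input reads per peak, counting error is wide. Most differences between single peaks are not resolved at this depth.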
